A study of Mus musculus with 4 samples.

Results

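Cholesterol supply in the liver is set by the transcription factor SREBP2, by the proteins that hold it back or release it, and by the transporters that carry sterols out of the cell. The genes described here are 8 members of that control: Srebf2, Scap, Insig1, Insig2, Stard4, Mylip, Abcg5 and Abcg8. Each was taken by its gene symbol from probe sets that the platform annotation assigns to a single gene, and where a gene had several such probe sets the brightest on average over the arrays was used. All 8 genes were found, among 22180 genes read in this way on Affymetrix expression arrays. The arrays held liver RNA of C57BL/6 mice that were older than 2 months when the diets were given, with males and females in each pool. One pool came from 6 mice null for Chrebp (gene Mlxipl) fed 70% fructose for 2 weeks, and its wild-type (WT) counterpart from 4 mice on that diet for the same 2 weeks. Another pool came from 7 WT mice fed 70% fructose for 3 weeks, and its counterpart from 7 WT mice on regular chow. The first pair is called the Chrebp-null comparison and the second the fructose comparison, and they have no array in common. The labels do not say how the null allele was made.

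SREBP2 is made as an inactive precursor in the membrane of the endoplasmic reticulum, bound to its escort SCAP. When sterols are scarce SCAP carries it to the Golgi, where proteases release the part that enters the nucleus and switches on genes of cholesterol synthesis and uptake. When sterols are plentiful the INSIG proteins hold SCAP and its cargo in place. Surplus cholesterol is handled through oxysterols and the nuclear receptor LXR, which induces Mylip, whose product marks lipoprotein receptors for breakdown, and Abcg5 and Abcg8, whose products pair to pump sterols into bile.

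The upstream sequence of the members that differed most, Srebf2 and Insig1, and the stretch between the neighbouring Abcg5 and Abcg8 are printed here, since SREBP2 acts on the first pair and the second pair lies head to head. RefSeq promoter windows (build GRCm38.p6, 250 bases before to 50 after a start) were matched for 7 of the 8 members, with 11 windows in all. The printed Srebf2 stretch is chr15:82147019-82147268, plus strand, ending just before the start. The printed Insig1 stretch is chr5:28071162-28071411, plus strand, also ending just before the start. The stretch between Abcg5, which runs on the minus strand, and Abcg8, on the plus strand, is chr17:84683012-84683120 and is written along the plus strand.
Srebf2: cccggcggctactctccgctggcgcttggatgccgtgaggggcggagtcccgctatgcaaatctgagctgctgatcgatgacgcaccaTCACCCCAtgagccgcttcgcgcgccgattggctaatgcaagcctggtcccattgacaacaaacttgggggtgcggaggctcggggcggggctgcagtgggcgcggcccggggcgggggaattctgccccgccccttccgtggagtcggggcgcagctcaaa
Insig1: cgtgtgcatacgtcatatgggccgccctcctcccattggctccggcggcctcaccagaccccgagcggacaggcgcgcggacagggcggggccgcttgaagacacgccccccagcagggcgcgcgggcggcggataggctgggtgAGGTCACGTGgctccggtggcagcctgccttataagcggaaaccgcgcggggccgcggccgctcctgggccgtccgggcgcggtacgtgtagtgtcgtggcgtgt
Abcg5 to Abcg8: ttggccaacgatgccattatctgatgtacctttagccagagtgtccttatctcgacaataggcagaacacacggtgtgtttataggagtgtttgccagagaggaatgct

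The capitals mark motif matches, searched on both strands. In Srebf2 they mark TCACNCCA, a shortened form of the sterol regulatory element to which SREBPs bind, from 162 to 155 bases before the start. The full form searched, TCACNCCAC, was found in 0 of the 11 windows and in 1.24% of 32851 windows of all genes; the shortened form was tried after the Srebf2 sequence had been seen and occurs in 4.36% of all windows. In Insig1 the capitals mark the E-box CACGTG, the core that SREBPs and the carbohydrate response factors share, from 101 to 96 bases before the start, and a nuclear receptor motif, AGGTCA, that overlaps it. CACGTG was present in 7.15% of all windows and AGGTCA in 16.3%. Scap was the other member with CACGTG, a single site that its 2 overlapping windows share. A direct repeat of AGGTCA with 4 bases between copies, the arrangement that LXR prefers, was found in 0 member windows and in 5 windows of all genes. Such matches describe letters only. RefSeq lists 2 promoter windows for Abcg8, and the one with the higher coordinate was used. Between its start and that of Abcg5 lie 109 bases, and these windows share 209 bases.

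The 4 arrays had medians between 3.11 and 3.17 on the log2 scale and pairwise Pearson's r between 0.974 and 0.982 over 41345 probe sets. Each group had 1 array, so no value below has a replicate error and no test was possible; the number of arrays limits the precision. A difference is the log2 level on one array minus that on another. A gene was assessed where its higher array reached a floor of log2 3.52, the median of all gene means, and called past 2-fold where the difference reached 1 in either direction. All 8 members lay well above the floor, with means over the arrays between 6.92 and 10.6, so none entered through 1 array alone. Mlxipl itself read 8.09 in the null pool, against 9.83 in the 2-week WT pool. The WT fructose pools came from separate mice and lasted unequal times, so they do not serve as replicates; 95% of the 11648 genes assessed between them differed by less than 0.811.

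Marker lists were read before the members. All 12 hepatocyte markers were above the floor, with mean log2 levels of 11.77 in the null pool, 11.82 in the 2-week WT pool, 11.72 in the 3-week WT pool and 11.81 on chow, and each differed by at most 0.34 in either comparison. Kupffer cell markers averaged 7.60, 7.39, 6.94 and 7.11 in the same order, sinusoidal endothelial markers 7.49, 7.75, 7.72 and 7.42, and stellate cell markers 6.77, 6.83, 6.54 and 6.69. For null over WT 6 of 10 Kupffer markers lay below 0, with a median of -0.09, beside 36.5% of all assessed genes below 0. Marco, a scavenger receptor of Kupffer cells, read 8.21 in the null pool and 5.55 in the 2-week WT pool. Of the endothelial markers 8 of 10 lay below 0 for null over WT, and Lyve1 was past 2-fold, at -1.01. Lyve1 read 7.19 in the null pool and 7.07 on chow, against 8.20 and 7.88 in the 2-week and 3-week WT fructose pools. Of 6 cholangiocyte markers 2 had a mean above the floor. In liver RNA, fewer cells of a type and less RNA per cell cannot be told apart.

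Genes that differ between male and female livers set the pools apart, although every pool is labelled as holding both sexes. The 12 female-biased genes averaged 5.97 in the null pool and 6.18 in the 2-week WT pool, against 8.26 in the 3-week WT pool and 7.99 on chow. Between the WT fructose pools, 6 of the 12 were at least 2-fold higher at 3 weeks, beside 148 of all 11648 assessed genes. The 14 male-biased genes averaged 6.67 in the null pool and 8.64 in the 2-week WT pool, against 9.10 in the 3-week WT pool and 9.13 on chow. In the null pool 8 of the 14 were at least 2-fold lower than in the 2-week WT pool, beside 166 of all 11631 assessed genes. The steroid and anion transporter gene Slco1a1 read 2.83 in the null pool, against 9.07 in the 2-week WT pool. In the fructose comparison 0 of 14 male-biased and 3 of 12 female-biased genes were past 2-fold, beside 1.80% of all assessed genes: Cyp3a44 at 2.46, Cyp3a16 at 1.99 and A1bg at -1.18. The share of each sex in a pool is unknown, and the part of sex in the members' differences was not tested in any comparison.

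**Figure D1:**
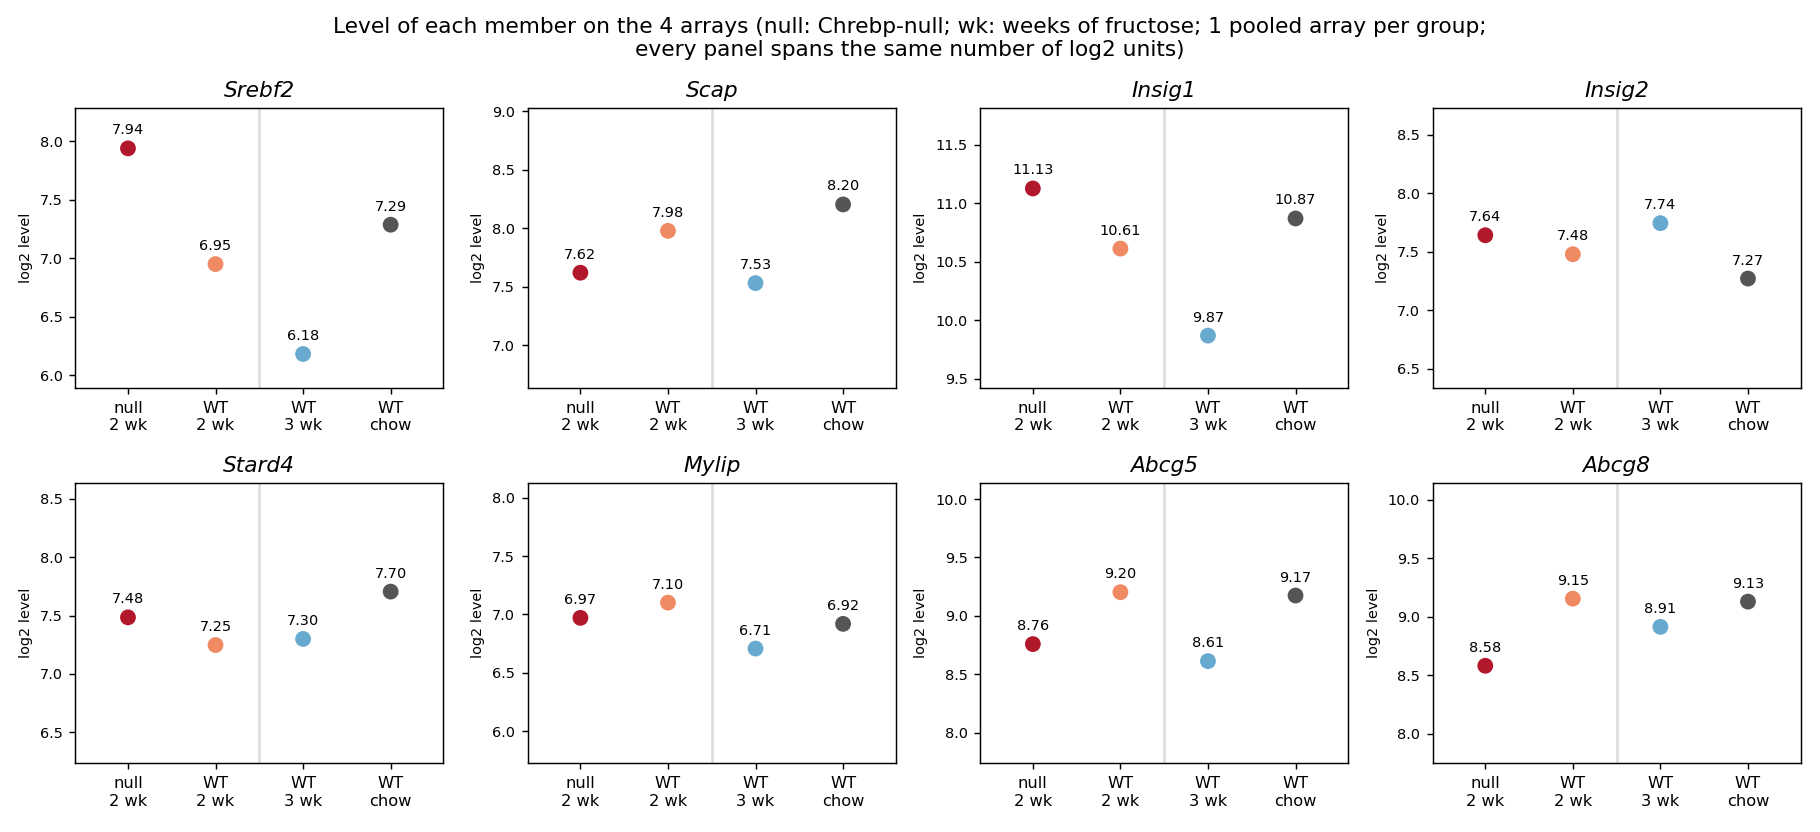
Log2 level of each member on the 4 arrays, 1 point per pooled array. The order is Chrebp-null and WT after 2 weeks of fructose, then WT after 3 weeks of fructose and WT on chow. Srebf2 ranges from 6.18 to 7.94 and Insig1 from 9.87 to 11.13, while the other 6 members span less than 0.7.

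Srebf2, the gene of SREBP2, varied most among the members. Its log2 level was 7.94 in the Chrebp-null pool and 6.95 in the 2-week WT pool. It was 6.18 in WT livers after 3 weeks of fructose and 7.29 in chow-fed WT livers. The null pool was therefore the highest and the 3-week WT pool the lowest, with chow above the 2-week WT pool. In the Chrebp-null comparison Srebf2 was higher by 0.99, a ratio of 1.99, just short of 2-fold; 3.51% of the 11631 assessed genes differed by as much. In the fructose comparison it was lower, at -1.11, a ratio of 2.15, a size reached by 1.17% of 11717 genes. The pools of WT mice were unequal: with 2 weeks of fructose over the same chow array the difference was -0.34, and over the 3-week WT array the null pool stood higher by 1.76, a ratio of 3.39.

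Scap, which encodes the escort of SREBP2, had the array order of Srebf2 among the WT pools but not in the null pool. It read 7.62 in the null pool and 7.98 in the 2-week WT pool, a difference of -0.36. It read 7.53 after 3 weeks of fructose and 8.20 on chow, a difference of -0.67 that 7.18% of assessed genes reached. Chow was thus the highest array for Scap and the 3-week WT pool the lowest, and the null pool lay 0.09 above the 3-week WT pool. The Srebf2 difference exceeded that of Scap by 1.35 in the Chrebp-null comparison and lay below it by -0.43 in the fructose comparison. A second Scap probe set read between 2.31 and 2.86, below the floor. Averaged with it, the Scap difference shrank to -0.28 in the fructose comparison and to -0.02 in the Chrebp-null comparison.

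The microRNA miR-33 is encoded within Srebf2 and is known to restrain the cholesterol exporter gene Abca1. Its 5-prime mature form is shown with the seed, bases 2 to 8, in capitals (RefSeq, GRCm38.p6, chr15:82198127-82198147, plus strand).
mmu-miR-33-5p: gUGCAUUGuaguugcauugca

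The probe set of the Mir33 precursor read 2.55 in the null pool, 2.57 in the 2-week WT pool, 2.32 in the 3-week WT pool and 2.29 on chow. All 4 values lie below the floor, so no difference was read for it. Abca1 read 8.43 in the null pool and 8.78 in the 2-week WT pool, and 8.39 after 3 weeks of fructose against 8.59 on chow.

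The INSIG genes, whose products retain SCAP in the endoplasmic reticulum, ran in opposite directions on 3 weeks of fructose. Insig1, itself a target of SREBP2, read 11.13 in the null pool and 10.61 in the 2-week WT pool. It read 9.87 in the 3-week WT pool and 10.87 on chow. The array order was the one seen for Srebf2, with the null pool highest and the 3-week WT pool lowest. Insig1 was lower by a difference of -1.002 in the fructose comparison, a ratio of 2.003, which only just passes 2-fold; 1.78% of assessed genes differed by as much. After quantile normalization its difference was -0.99 and after removal of the trend with level -0.95, both short of 2-fold. In the Chrebp-null comparison Insig1 was higher by 0.51, and 16.8% of genes differed by that much. With the other WT fructose pool these values were -0.26 over chow and 1.26 for the null pool.

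Insig2, which in mouse liver has transcripts from several starts, had its lowest level on chow. It read 7.64 in the null pool and 7.48 in the 2-week WT pool, and 7.74 in the 3-week WT pool against 7.27 on chow. All 3 fructose-fed pools lay above chow, by 0.21 to 0.47, a span within which the pools cannot be ordered without replicates. The fructose comparison gave 0.47, a size that 17.6% of assessed genes reached, and the Chrebp-null comparison 0.16, which 60.1% reached. The Insig1 difference lay below that of Insig2 by -1.48 in the fructose comparison and above it by 0.35 in the Chrebp-null comparison. RefSeq lists 3 promoter windows for Insig2, and the files do not say which transcripts its probe set reads.

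**Figure D2:**
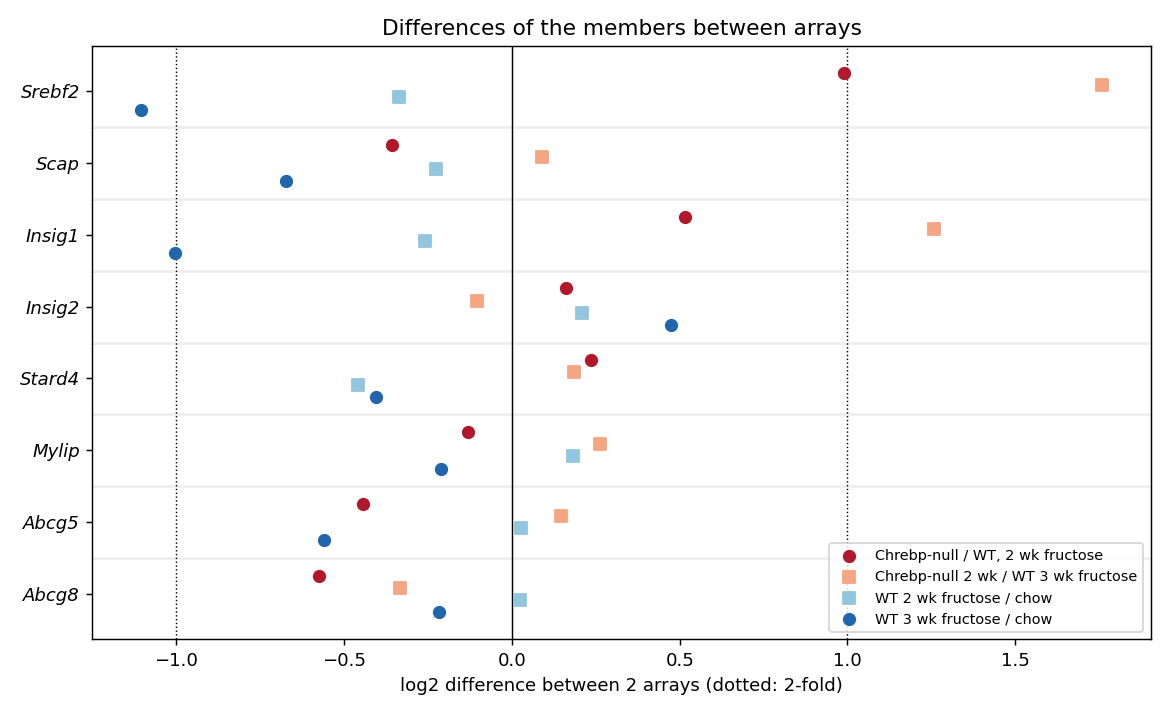
Log2 differences of the 8 members between arrays, with dotted lines at 2-fold. Circles mark the comparisons of the series design and squares the pairs that use the other WT fructose array; Srebf2 and Insig1 lie left of 0 for fructose over chow and right of 0 for null over WT with either WT pool.

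Stard4, a sterol-regulated carrier that moves cholesterol between membranes, differed little. It read 7.48 in the null pool and 7.25 in the 2-week WT pool, a difference of 0.24. It read 7.30 after 3 weeks of fructose and 7.70 on chow, a difference of -0.41 that 23.2% of assessed genes reached. Chow was its highest array, and the WT fructose pools lay within 0.05 of each other. Its difference from chow was -0.46 with the 2-week WT pool and -0.41 with the 3-week WT pool, which share the chow array.

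Across the members, 2 of 8 were past 2-fold in the fructose comparison, Srebf2 and Insig1, both lower, beside 1.80% of the 11717 assessed genes in either direction and 1.16% lower. The split over all genes was 75 higher and 136 lower, and 93 and 105 once the trend with level was removed. The median over the 8 members was -0.48, with a range from -1.11 to 0.47, beside -0.05 over all assessed genes. For null over WT 0 of 8 members were past 2-fold, beside 3.46% of 11631 genes, of which 2.03% of the total were higher. There the split was 236 higher and 166 lower, and 140 and 225 without the trend. The member median was 0.02, with a range from -0.57 to 0.99, beside 0.10 over all genes. Srebf2 would be counted at 1.5-fold.

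The other array pairs share arrays with these comparisons and are given side by side. No member was past 2-fold for 2 weeks of fructose over chow (2.19% of all assessed genes), for the 3-week over the 2-week WT pool (2.37%) or for the null pool over chow (3.09%). For the null pool over the 3-week WT pool Srebf2 and Insig1 were past 2-fold, at 1.76 and 1.26, beside 5.33% of all genes. Between the WT fructose pools Srebf2 and Insig1 were lower at 3 weeks, at -0.77 and -0.74, sizes that 6.02% and 6.66% of genes reached. Those gaps are as large as many of the differences described here. Over chow, the null pool held Srebf2 at 0.65, Scap at -0.58 and Insig2 at 0.37.

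Genes expressed near the members' own levels served as a closer background, chosen after the values were seen. Of the 3346 genes with a mean level between those of the lowest and highest member, 2.45% were past 2-fold in the fructose comparison and 2.84% in the Chrebp-null comparison. The Srebf2 difference was reached by 1.61% and 2.87% of them, and the Insig1 difference by 2.42% and 10.5%.

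**Figure D3:**
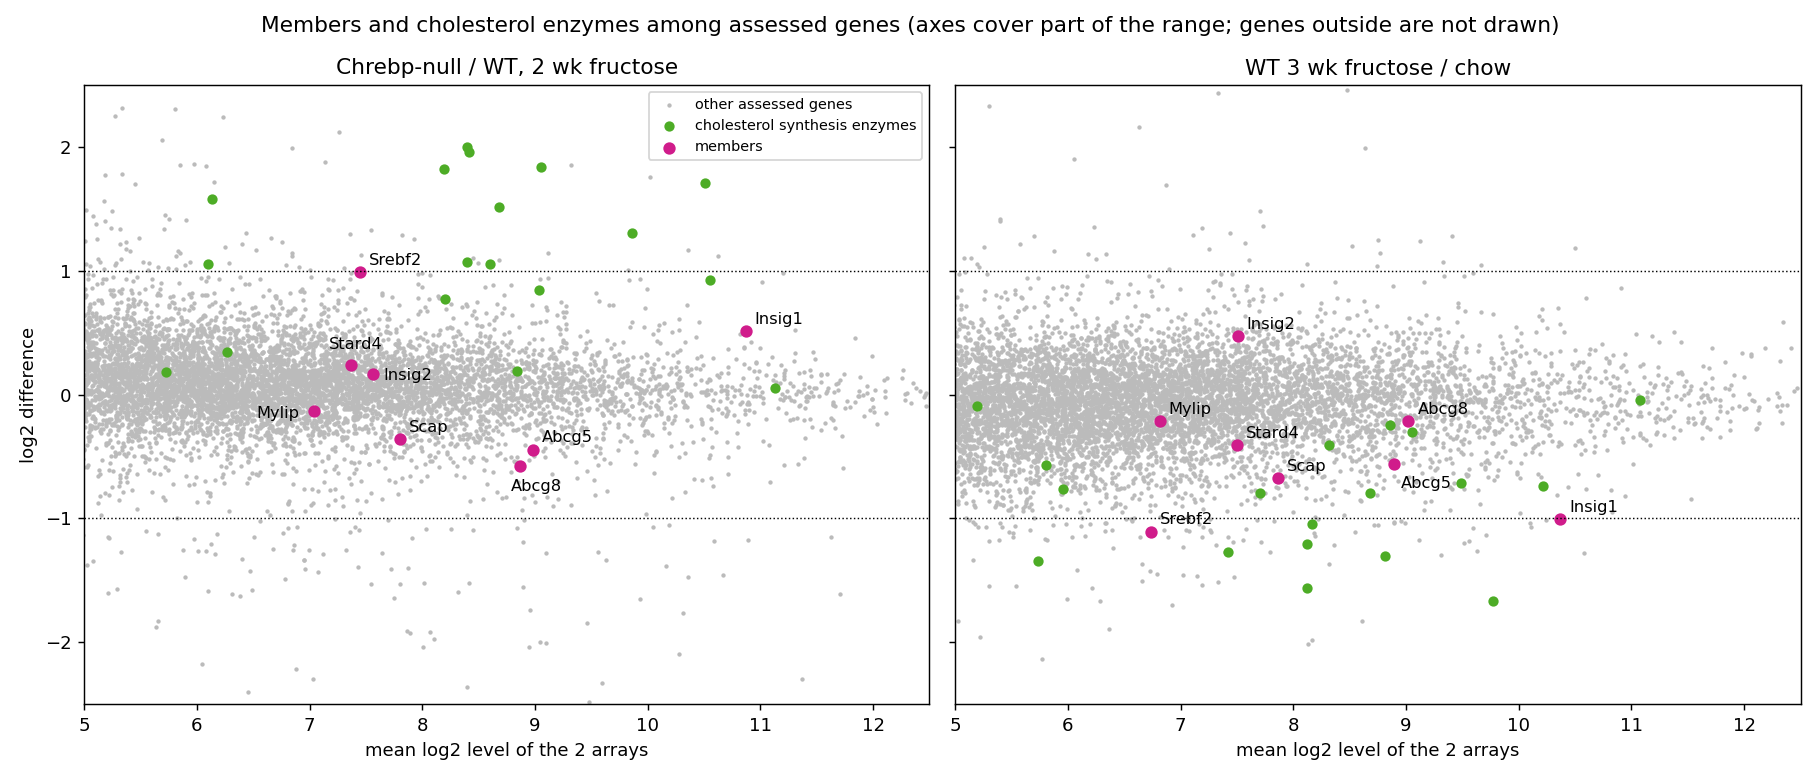
Log2 difference (vertical) against the mean log2 level of the compared arrays (horizontal) for assessed genes in grey, the 18 cholesterol synthesis enzymes in green and the members in magenta; the axes cover part of the range. On the left the enzymes lie above 0 and Srebf2 sits at 0.99; on the right the enzymes lie below 0 with Srebf2 at -1.11 and Insig1 at -1.002.

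The enzymes of cholesterol synthesis, the main targets of SREBP2, lay on the same side as Srebf2 in each comparison. Of the 22 listed, 18 had a single-gene probe set and all of these were above the floor. For null over WT, 11 of 18 were at least 2-fold higher and 18 of 18 lay above 0, with a median of 1.06. The shares of all assessed genes were 2.03% and 63.4%. In the fructose comparison 7 of 18 were at least 2-fold lower and 18 of 18 lay below 0, with a median of -0.78. There the shares of all assessed genes were 1.16% and 56.5%. With the 2-week WT pool over chow, 5 of 18 enzymes were at least 2-fold lower, beside 164 of all 11622 assessed genes. Only 15 of 18 then lay below 0, with a median of -0.63. Against the 3-week WT pool, 18 of 18 still lay above 0 in the null pool. Over the 11154 genes assessed in both comparisons, 37.7% were lower on fructose and higher in the null pool. Among the members 3 of 8 had that pattern, Srebf2, Insig1 and Stard4; the values of Scap, Mylip, Abcg5 and Abcg8 lay below 0 in both and those of Insig2 above 0 in both. For these 5 genes the side in 1 or both comparisons turned with the other WT fructose pool. No pattern over both comparisons is therefore read from them, whereas Srebf2, Insig1 and Stard4 kept their sides in both. Scap and Insig2 kept theirs over chow alone, and Abcg8 for null over WT alone. The share of members with it, 37.5%, is that of all genes.

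The enzymes did not all share the array order of Srebf2. The order null, chow, 2-week WT, 3-week WT from high to low was found for 8 of 18 enzymes, among them Hmgcs1, Lss and Dhcr7. It was found for 9.69% of the 11090 genes with a mean above the floor. Srebf2 defines this order, and of the other members Insig1 alone had it. Sqle, squalene epoxidase, read 9.40 in the null pool and 7.40 in the 2-week WT pool, and 7.52 at 3 weeks against 8.73 on chow. Its WT fructose pools were thus nearly level, where Srebf2 differed by -0.77 between them. Over the list the median difference between the WT fructose pools was -0.09. In the Chrebp-null comparison Srebf2 differed by less than the enzymes Sqle at 2.00, Msmo1 at 1.95 and Cyp51 at 1.83.

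**Figure D4:**
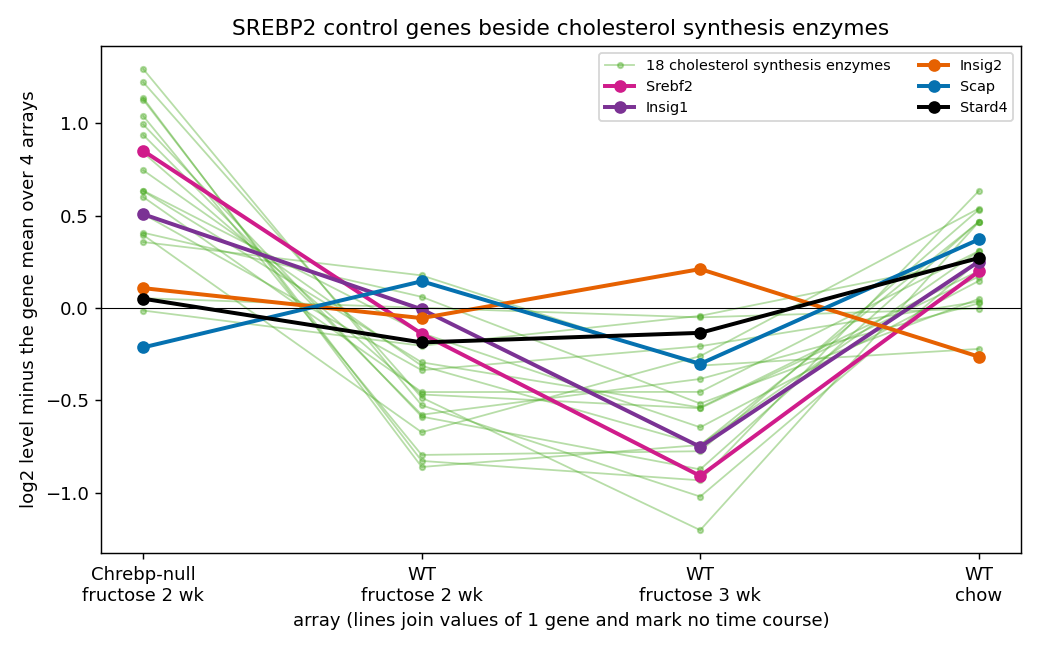
Log2 level minus the gene's mean over the 4 arrays, for 5 members (thick lines) and 18 cholesterol synthesis enzymes (thin green lines). Srebf2 and Insig1 are lowest in the 3-week WT pool and highest in the null pool, while Insig2 is lowest and Scap highest on chow.

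Genes for proteins that cut, hold or degrade the SREBP machinery were read as a list. Of 16 genes assessed from a list of 20, 0 were past 2-fold in the fructose comparison, beside 1.80% of all assessed genes. The median there was -0.14, and 13 of 16 lay below 0, beside 56.5% of all assessed genes. In the Chrebp-null comparison the median was 0.16, and 13 of 16 lay above 0, beside 63.4%. Only 1 of 16 was past 2-fold there, beside 3.46% of all assessed genes. That gene was Srebf1, which encodes the related factor SREBP1 for fatty acid synthesis. Srebf1 read 8.12 in the null pool and 9.67 in the 2-week WT pool, a difference of -1.55 beside 0.99 for Srebf2. It read 8.82 after 3 weeks of fructose and 8.78 on chow, a difference of 0.05 beside -1.11 for Srebf2. With the other WT fructose pool the Srebf1 differences were -0.70 for null over WT, short of 2-fold, and 0.89 for fructose over chow. Of the Golgi proteases that free SREBPs, Mbtps1 stood at -0.14 and Mbtps2 at 0.53 in the Chrebp-null comparison, and at -0.47 and -0.004 in the fructose comparison. Tmem97, a sterol-regulated membrane protein, stood at 0.87 and -0.15. Other carriers of cholesterol within the cell had 0 of 13 assessed genes past 2-fold in either comparison. The shares of all assessed genes were 3.46% for null over WT and 1.80% for fructose over chow. The list medians were -0.04 and -0.01 in that order.

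Mylip, the E3 ligase that marks lipoprotein receptors for breakdown, had the smallest range of the members, 0.39. It read 6.97 in the null pool and 7.10 in the 2-week WT pool, and 6.71 at 3 weeks of fructose against 6.92 on chow. The differences were -0.13 and -0.21, sizes that 66.9% and 51.9% of assessed genes reached. Its order put the 2-week WT pool highest, and with the other WT pool both differences turned, to 0.26 for null over WT and 0.18 for fructose over chow. No direction is therefore given for Mylip.

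Abcg5 and Abcg8 encode the paired sterol exporters of the bile canaliculus. Abcg5 read 8.76 in the null pool and 9.20 in the 2-week WT pool, and 8.61 at 3 weeks of fructose against 9.17 on chow. Abcg8 read 8.58 in the null pool and 9.15 in the 2-week WT pool, and 8.91 at 3 weeks of fructose against 9.13 on chow. For both genes the 2-week WT and chow arrays were nearly equal, within 0.03, and the null and 3-week WT arrays lay below them. The Chrebp-null differences were -0.44 and -0.57, reached by 21.9% and 13.5% of assessed genes. The fructose differences were -0.56 and -0.22, reached by 11.8% and 51.1%. Abcg5 minus Abcg8 thus came to 0.13 in the Chrebp-null comparison and -0.35 in the fructose comparison. Against the 3-week WT pool the null pool stood at 0.15 for Abcg5 and -0.33 for Abcg8, so their lower level in the null pool held with either WT pool for Abcg8 alone.

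Other genes of canalicular and sterol transport were set beside them, a list that holds more than exporters. Of the 9 genes on it, 0 were past 2-fold in either comparison, beside 1.80% of all assessed genes for fructose and 3.46% for null. Scarb1 is among the 9 and is also counted with the lipoprotein uptake genes. All 9 lay below 0 in the fructose comparison, with a median of -0.34, beside 56.5% of all assessed genes below 0. Abcb11, the bile salt pump, stood at -0.62, Abcb4, the phosphatidylcholine translocator, at -0.58, and Scarb1, the receptor for high-density lipoprotein, at -0.54. With 2 weeks of fructose over chow 7 of the 9 were above 0 and the median was 0.17. For null over WT, 7 of 9 were above 0, with a median of 0.16, beside 63.4% of all assessed genes above 0 and a median of 0.10. Among LXR and its partners and targets, in which Abca1, Abcg1 and Srebf1 recur, 0 of 11 were past 2-fold in the fructose comparison. In the Chrebp-null comparison 1 was, Srebf1, and the shares of all assessed genes were those given for the transport list. The list medians were -0.22 for null over WT and 0.05 for fructose over chow. With the other WT fructose pool they were 0.03 and 0.19. In the Chrebp-null and fructose comparisons Nr1d1 differed by -0.98 and -0.49, and Nr1h3, the gene of LXR alpha, by -0.06 and 0.06.

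Likeness of pattern was measured as the root mean square distance between levels centred on each gene's mean, over 4 arrays, for members with a range of at least 1. The genes nearest to Srebf2 were Arhgef19 at 0.078, Actg1 at 0.096 and Rtn4rl1 at 0.098. Those nearest to Insig1 were Cd276 at 0.030, Gdpgp1 at 0.045 and Spns2 at 0.048. Among the members and cholesterol enzymes alone, Dhcr7 was nearest to Srebf2 at 0.14 and Pmvk nearest to Insig1 at 0.12. The search ran over 4 arrays and the 11090 genes with a mean above the floor, leaving out Gm, Rik, Mir, Snor and LOC symbols.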

How the data were processed

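Liver RNA from 4 groups of mice was measured on 1 array per group, each holding RNA combined from several livers, per the labels' protocols. For 41345 probe sets the authors deposited log2 values, produced by RMA in affy, which corrects background, normalizes across arrays and summarizes probes, per the submitters' processing notes. No version, setting or genome build was found in the labels or headers. Such processing can compress differences of dim genes. The values were used as deposited.

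The platform annotation gave 1 symbol for 23521 probe sets, several for 1814 and none for 16010; only the first kind was used, which gave 22180 genes. Groups came from the labels. The floor was the 50 percentile of gene means. The named genes are the members, the up to 5 genes with the largest differences per list and comparison, and the 3 nearest in pattern per member with a range of at least 1; Nr1h3, Dhcr7, Pmvk, the Mir33 probe set and the shortened motif were chosen after values or sequences were seen. The members and lists were chosen with earlier results of these data known. Array files hold no read depth. Counting was tested on simulated arrays. The 11 alternatives are no floor, a floor at the 75 percentile, 2 scalings, trend removal (lowess, fraction 0.3), means of probe sets, 1.5-fold and 3-fold thresholds, the other or both WT fructose arrays, and levels set at the floor. Python 3.11.15, numpy 2.4.6, pandas 2.3.3, statsmodels 0.14.6 and matplotlib 3.10.9 were used.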

Additional observations from a re-analysis of the deposited data

Results flagged for a closer look

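Mylip, Abcg5 and Abcg8 differed from chow with unlike signs in the WT fructose pools, but at 2 weeks Abcg5 and Abcg8 were nearly level with chow. Differences as large as those 2-week ones were reached by 91.8% of assessed genes for Abcg5 and 92.8% for Abcg8. For Mylip at 2 weeks the share was 53.3%. Over chow, Mylip stood at 0.18 after 2 weeks and -0.21 after 3 weeks of fructose, so that the 3-week minus the 2-week difference was -0.39. Abcg5 stood at 0.03 and -0.56, a gap of -0.59, and Abcg8 at 0.03 and -0.22, a gap of -0.24. Both differences use the chow array, each pool is 1 array, and the gap was not tested.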

How the results depend on the processing

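Each member kept its direction in both comparisons under the 7 alternatives that keep arrays and threshold. Those that alter only the floor could not change a member value, since all members lay above it. Averaging probe sets could change Scap alone, so for the other members only the scalings and the trend removal could have turned a direction. With the other WT fructose pool 7 of the 16 member values changed sign. In the Chrebp-null comparison these were Scap at 0.09, Insig2 at -0.10, Mylip at 0.26 and Abcg5 at 0.15, and in the fructose comparison Mylip at 0.18, Abcg5 at 0.03 and Abcg8 at 0.03. The count of members past 2-fold in the fructose comparison, 2, became 1 with quantile normalization and 1 with the trend removed, 0 at 3-fold, and 0 with the 2-week WT pool or the mean of both WT fructose pools in place of the 3-week pool. In the Chrebp-null comparison the count, 0, became 1 at 1.5-fold, 2 with the 3-week WT pool and 1 with the mean of both; the member median, 0.02, turned to -0.0285 with quantile normalization and -0.0522 with the trend removed. With the mean of both WT pools Srebf2 stood at -0.72 and 1.38 in the fructose and Chrebp-null comparisons. Cholesterol enzymes past 2-fold numbered 12 at 1.5-fold and 1 at 3-fold in the fructose comparison, against 7, and 5 at 3-fold in the Chrebp-null comparison, against 11. All genes past the threshold numbered 1244 at 1.5-fold, 29 at 3-fold and 115 with the mean of both WT pools in the fructose comparison, against 211. In the Chrebp-null comparison they numbered 1506 at 1.5-fold, 100 at 3-fold, 197 with the higher floor and 628 with the 3-week WT pool, against 402. Fewer genes assessed, the threshold or the array replaced define these settings; the cause of the other shifts was not tested. Removing the trend moved the median of all genes by -0.10 in the Chrebp-null comparison. No paired analysis was possible because each group has 1 array. Signal over background was not analysed here.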

Other observations

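Genes of lipoprotein uptake and of cholesterol ester turnover were read beside the members. Of 11 uptake genes assessed, 0 were past 2-fold in either comparison. The shares of all assessed genes were 3.46% for Chrebp-null over WT and 1.80% for fructose over chow. The list medians were 0.02 and -0.02 in that order. Vldlr, a lipoprotein receptor gene, differed by 0.95 for Chrebp-null over WT, and read 5.71 after 3 weeks of fructose against 5.18 on chow. With the other WT fructose pool its differences were 0.24 for Chrebp-null over WT and -0.18 for fructose over chow. Of 9 genes listed for ester formation and hydrolysis, 7 had a single-gene probe set. Soat1 and Soat2 did not and were not read. Among the 7, 1 was past 2-fold in the Chrebp-null comparison, beside 3.46% of all assessed genes. This was Ces3a, a liver carboxylesterase, which read 9.23 in the null pool and 11.32 in the 2-week WT pool. Its difference was -2.09, and -2.06 against the 3-week WT pool. The Ces genes are a family of similar copies, so probes may not separate them. Lipa, lysosomal acid lipase, read 10.67 in the null pool, 10.64 and 10.39 in the WT pools after 2 and 3 weeks of fructose, and 10.08 on chow.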
